A study of Mus musculus with 24 samples.

Results

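The aldo-keto reductases of subfamily 1B of the mouse are NADPH-dependent enzymes that reduce aldehydes and ketones. 4 of the 52089 symbols of the deposited expression table belong to this subfamily here, Akr1b3, Akr1b8, Akr1b10 and Akr1b7, and they were found by their symbol. The table lists 21 transcript entries for them, 8 for Akr1b3, 1 for Akr1b8, 9 for Akr1b10 and 3 for Akr1b7, and 20 of these were above 0 in at least 1 library. For each gene the entry with the highest mean level over all 24 libraries is described first and the other entries stand beside it. The subfamily was chosen by results of these libraries, among them the log2 difference of Akr1b3 between KD and NC, which differed between the times, so that the values of Akr1b3 are given as a description, without a p.

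The cells were primary preadipocytes from 129SvEv mice, taken out of the stromal vascular fraction of the inguinal white fat pad. Induction and differentiation were done with rosiglitazone, an agonist of PPARG that promotes the brite (brown-in-white) fate. The cells were reverse transfected at 50 nM with an LNA gapmer and collected 24 h or 72 h later. Such a gapmer is an antisense oligonucleotide with locked nucleic acid ends that leads to cleavage of the RNA it binds. Per the study, transfection came early, on the day that followed induction, and not in mature cells. Differentiation thus went on until collection. The 2 times therefore also differ in the stage of differentiation, and its part in changes over time was not tested. KD samples received a gapmer against the long noncoding RNA Ctcflos and NC samples a non-targeting gapmer, with 6 libraries in each of the 4 groups, and rosiglitazone was common to all of them. The labels do not say whether replicates came from separate animals or cultures. The study calls its replicates biological without saying which of these they were, so the tests measure the spread between these samples, part of which may be technical.

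Akr1b3 encodes aldose reductase, which turns glucose into sorbitol in the first step of the polyol pathway, and it also reduces aldehydes from lipid peroxidation. Akr1b8, also called FR-1, and Akr1b10, also listed as Akr1b16, encode related reductases of aliphatic and retinoid aldehydes. Akr1b7, first described as the mouse vas deferens protein (MVDP), can make prostaglandin F and is known from adrenal cortex and from the stromal cells of fat. Aldose reductase genes respond to osmotic stress and, in several species, to oxidative stress.

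The genes lie next to each other on chromosome 6. In the RefSeq annotation of GRCm38.p6 they span chr6:34303930-34423137 (119.2 kb), with Akr1b3 at chr6:34303930-34317489 on the minus strand, Akr1b8 at chr6:34354146-34368461, Akr1b10 at chr6:34384247-34396949 and Akr1b7 at chr6:34412362-34423137 on the plus strand. The genome build behind the deposited table is not given in the sources used here. To show how close the paralogues are, the first 60 coding bases of each gene follow, 5′ to 3′, from the GENCODE transcripts, with capitals at the positions that differ from Akr1b3.
Akr1b3: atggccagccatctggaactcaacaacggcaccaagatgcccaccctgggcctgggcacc
Akr1b8: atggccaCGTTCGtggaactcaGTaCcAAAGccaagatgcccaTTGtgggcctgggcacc
Akr1b10: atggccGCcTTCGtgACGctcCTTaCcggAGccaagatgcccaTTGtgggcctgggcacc
Akr1b7: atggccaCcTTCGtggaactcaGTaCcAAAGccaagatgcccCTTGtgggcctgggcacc
The 3 genes on the plus strand share most of their differences from Akr1b3 in this stretch, with 16 unlike bases in Akr1b8, 18 in Akr1b10 and 16 in Akr1b7. Over the whole coding sequence of 948 bases, Akr1b3 matched the others at 71.6% to 72.0% of aligned positions. Akr1b8 matched Akr1b10 at 84.7% and Akr1b7 at 84.8%, and Akr1b10 matched Akr1b7 at 89.2%.

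Reads could be shared to a different extent among the genes. No stretch of 50 bases was common to Akr1b3 and another member, whereas Akr1b8 and Akr1b10 shared 31 such stretches, Akr1b10 and Akr1b7 14, and Akr1b8 and Akr1b7 3. Akr1b3 instead shared 86.2% of its 50-base stretches with 5 other annotated genes, 4 of them processed pseudogenes, against 3.21% for Akr1b8, 3.18% for Akr1b10 and 15.8% for Akr1b7. How the authors assigned reads that match several places is not given in the sources used here, so levels of Akr1b3 may include reads split with these copies.

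Akr1b8 was called higher in KD and its neighbour Akr1b10 was not, so their promoters are shown with that of Akr1b7, a window of 300 bases around the start each, as RefSeq lists them for GRCm38.p6. Capitals mark runs of at least 10 bases that also occur in another of these promoters. The windows are chr6:34353896-34354195 for Akr1b8, chr6:34383997-34384296 for Akr1b10 and chr6:34412112-34412411 for Akr1b7, all on the plus strand.
Akr1b8: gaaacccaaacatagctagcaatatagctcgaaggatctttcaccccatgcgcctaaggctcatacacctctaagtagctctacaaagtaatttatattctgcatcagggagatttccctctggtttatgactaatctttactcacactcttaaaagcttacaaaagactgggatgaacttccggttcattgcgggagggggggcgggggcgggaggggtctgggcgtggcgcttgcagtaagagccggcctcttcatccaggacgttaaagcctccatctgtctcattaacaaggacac
Akr1b10: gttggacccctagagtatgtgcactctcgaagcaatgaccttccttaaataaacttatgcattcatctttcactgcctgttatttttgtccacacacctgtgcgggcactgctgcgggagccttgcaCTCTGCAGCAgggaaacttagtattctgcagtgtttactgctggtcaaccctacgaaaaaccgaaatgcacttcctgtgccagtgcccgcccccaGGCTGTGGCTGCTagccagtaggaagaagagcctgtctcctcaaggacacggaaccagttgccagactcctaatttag
Akr1b7: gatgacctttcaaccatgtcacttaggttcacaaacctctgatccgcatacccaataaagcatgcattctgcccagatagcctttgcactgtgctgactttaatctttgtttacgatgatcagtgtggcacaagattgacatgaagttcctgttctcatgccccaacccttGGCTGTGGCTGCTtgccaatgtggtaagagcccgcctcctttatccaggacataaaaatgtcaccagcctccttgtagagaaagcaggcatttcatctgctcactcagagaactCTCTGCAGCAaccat
Akr1b10 and Akr1b7 shared runs that add up to 23 bases, and the Akr1b8 window shared none. A search on both strands for the antioxidant response element core TGACNNNGC, the AP-1 site TGANTCA and the tonicity element core TGGAAA found none in these 3 windows. Of 32851 mouse promoters of this length, 12.4% held the first, 7.81% the second and 21.4% the third. No promoter of Akr1b3 was analysed here.

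The libraries held between 1391832 and 5423840 mapped reads (median 3945867), recovered from the steps of the deposited values, and KD 24 h replicate 6 was the shallowest. NC 72 h replicates 2 and 3 differed by less than the sampling noise and were averaged to 1 sample, which leaves 5 samples in that group. Read totals given for NC 72 h still count all 6 libraries, with these replicates taken separately. Deviations from the group means split the samples into a larger and a smaller cluster, with 2 samples of every group in the smaller one, and values within each are given below. Ctcflos, listed as 1300015D01Rik, was lower in KD in 6 of 12 entry and time combinations tested (exact permutation test, two-sided, adjusted p under 0.05), and the entries differed. Some entries held the same read numbers as another, so these combinations are not all separate. AK041254, which the study calls transcript 1, was at 59.4% of the NC mean at 24 h (exact p = 0.37, adjusted p = 0.444) and 8.36% at 72 h (exact p = 0.00649, adjusted p = 0.013). It had 8 reads in KD and 12 in NC at 24 h, and 3 and 32 at 72 h. With so few reads, whether it fell at 24 h could not be told. AK079954, its transcript 3, was at 13.4% at 24 h (6 against 36 reads, exact p = 0.00649, adjusted p = 0.013) and 13.2% at 72 h (7 against 47 reads). The labels do not say which transcript the gapmer targets. All 5 adipocyte markers were detected, and their summed level ran from 27560 to 40610 RPKM in KD 72 h and from 33530 to 43540 in NC 72 h. Most of this sum was Fabp4, with scaled means of 26180 RPKM in KD 72 h and 39040 in NC 72 h. The summed level of 5 epithelial markers, of which only Krt19 was abundant enough for the fit, ran from 119 to 171 RPKM in KD 72 h and from 17.9 to 25.9 in NC 72 h, and from 22.9 to 75.7 in KD 24 h and 17.9 to 25.2 in NC 24 h. Krt19 was called higher at both times. Some other markers were also called at each time. At 24 h, Adipoq (-0.53 on the log2 scale) and Lipe (-0.41) were called lower, of 5 adipocyte genes tested. Of 3 macrophage genes, Csf1r (1.29) and Cd68 (1.23) were called higher and Lyz2 (-1.83) was not called. None of 5 preadipocyte genes was called at 24 h, nor was the mesothelial gene Lrrn4 (-0.19). At 72 h, of 5 adipocyte genes tested, Adipoq (-0.94) and Fabp4 (-0.58) were called lower. The other 3 were not called: Cidec (0.10), Lipe (-0.41) and Plin1 (-0.45). Of 4 preadipocyte genes tested, Cd34 (2.29) and Pdgfrb (0.59) were called higher, and Ly6a (0.27) and Pdgfra (-0.31) were not called. Cd34 was low, with scaled means of 1.92 RPKM in KD 72 h and 0.41 in NC 72 h. Of 3 macrophage genes tested, Cd68 (1.94) and Csf1r (1.24) were called higher and Lyz2 (-3.94) lower. Of 2 mesothelial genes tested, Lrrn4 (-0.78) was called lower and Wt1 (-1.42) was not called. The part of these markers in the values of Akr1b3 and Akr1b8 was not tested. In these bulk samples fewer cells of a type and less RNA per cell cannot be told apart.

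Akr1b3 and Akr1b8 were higher after the knockdown at both times and Akr1b10 was not, while Akr1b7 was at the limit of detection. Of the 3 members abundant enough for the fit, 2 were called higher at 24 h (adjusted p under 0.05, limma on the log2 scale), where 22.7% of all entries were called and 11.1% called higher. At 72 h the same 2 of 3 were called higher, where 22.5% of all entries were called and 10.4% called higher. Akr1b3 is one of these 2 and is counted as a description. Since the genes were picked with such results known, nothing is read from these shares.

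**Figure D1:**
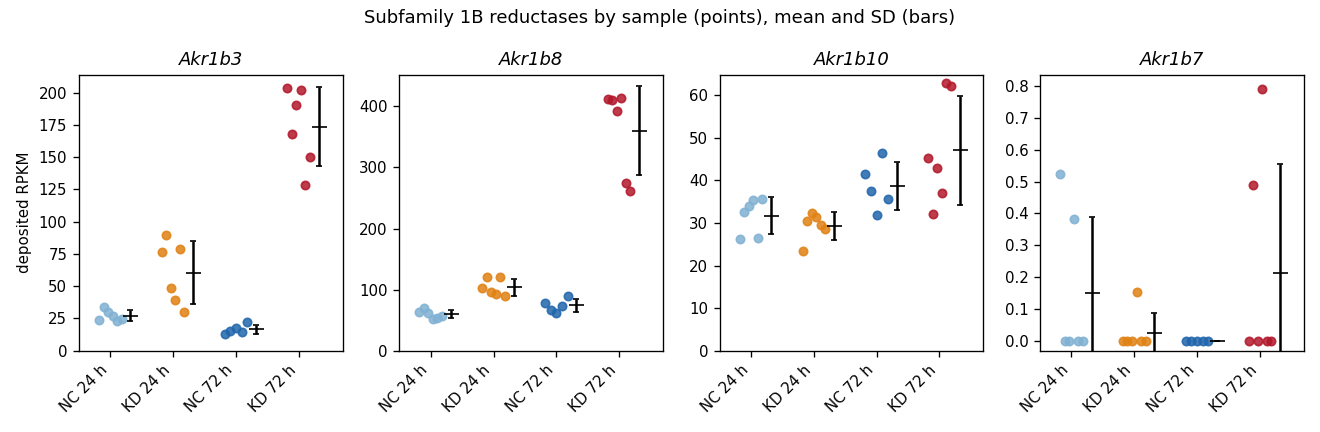
Deposited RPKM (linear axes) of the leading entry of each gene in every sample of the 4 groups, one panel per gene with its own axis. Points are samples and bars the mean with the SD. At 72 h all KD samples of Akr1b3 (128 to 204) and Akr1b8 (262 to 413) lie above all NC samples, those of Akr1b10 overlap, and Akr1b7 stays below 1. All KD samples were above all NC samples for 14.2% of the entries tested at 72 h.

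For Akr1b3 the leading entry was ENSMUST00000142761. At 24 h the KD samples held 76.8, 89.7, 48.5, 39.2, 78.9 and 29.8 RPKM, or 29.8 at the lowest, 62.6 in the median and 89.7 at the highest. The NC samples ran from 23.1 to 33.9 RPKM with a median of 25.7. KD samples were more spread than NC samples, and the groups overlapped in KD replicate 6 alone, which lay inside the NC range. The means were 60.5 ± 24.5 RPKM (SD, n = 6) and 27.0 ± 4.21 RPKM (SD, n = 6). The fitted difference was 1.01 ± 0.24 on the log2 scale (± SE), or 2.01-fold, and without KD replicate 6 it was 1.21 ± 0.18.

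At 72 h the Akr1b3 levels lay far apart. KD samples ran from 128 to 204 RPKM with a median of 179, and the 5 NC samples held 13.0, 22.6, 15.3, 17.4 and 14.6 RPKM. The lowest KD sample was thus well above the highest NC sample. In deposited RPKM, all KD samples were above all NC samples for 14.2% of the entries tested at 72 h. The means were 174 ± 30.5 RPKM (SD, n = 6) and 16.6 ± 3.69 RPKM (SD, n = 5). The fitted difference was 3.14 ± 0.18 on the log2 scale, or 8.80-fold.

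Between 24 h and 72 h Akr1b3 differed by -0.68 ± 0.15 on the log2 scale in NC cells and by 1.44 ± 0.26 in KD cells. The knockdown difference was larger at 72 h than at 24 h by 2.14 ± 0.32. This last value was known when the subfamily was chosen. These comparisons share their samples with the KD and NC comparisons above.

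4 entries of Akr1b3 gave much the same picture, with nearly equal read totals. ENSMUST00000142761 is 554 bases long and annotated by GENCODE as a retained intron transcript, but it contains the last 492 bases of the 1387-base coding transcript, where reads of a 3′-end library fall. In KD 72 h it was read 2191 times in all, the RefSeq entry NM_009658 2203 times, AK028079 2195 times and AK164689 2213 times. Their higher or lower RPKM therefore reflects the length of 554 to 5024 bases by which similar read numbers were divided. NM_009658 differed between KD and NC by 0.99 ± 0.25 on the log2 scale at 24 h and by 3.11 ± 0.18 at 72 h, AK028079 by 0.98 ± 0.25 and 3.12 ± 0.18, and AK164689 by 1.00 ± 0.26 and 3.06 ± 0.20.

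AK138000 is a 3254-base entry that was read fewer times. In KD samples it ran from 0.94 to 2.93 RPKM (median 2.31) at 24 h and from 1.41 to 2.58 (median 1.79) at 72 h. In NC samples it ran from 0.37 to 1.27 RPKM (median 0.58) at 24 h and from 0 to 0.53 (median 0.13) at 72 h. The groups overlapped at 24 h, where the fitted difference was 1.51 ± 0.32 on the log2 scale. At 72 h all KD samples were above all NC samples, as for 14.2% of the entries tested, and the fitted difference was 2.83 ± 0.40. Within KD cells this entry changed by -0.29 ± 0.25 between the times while NM_009658 changed by 1.43 ± 0.26, and the difference between these 2 values was not tested. As a percentage of NM_009658 its level had a median of 8.54% in KD 24 h, 5.74% in NC 24 h, 2.29% in KD 72 h and 1.80% in NC 72 h.

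The 3 remaining entries were too low for the fit. AK170663 had a mean of 2.86 RPKM in KD 72 h (66 reads) and 0.49 in NC 72 h (10 reads). The groups did not overlap, with KD higher, as for 14.2% of the entries abundant enough for the fit. At 24 h the means of AK170663 were 1.37 and 0.61 RPKM and the groups overlapped. ENSMUST00000126991 stayed at 20 reads or fewer in every group, and AK145392 was at 0 throughout. Of the genes that share sequence with Akr1b3, only the processed pseudogene Gm6644 was listed in the table. Its entry NR_037965 had means of 4.24 RPKM in KD 24 h, 2.28 in NC 24 h, 10.1 in KD 72 h and 1.06 in NC 72 h, the same order of groups as Akr1b3, and whether these are reads of Akr1b3 was not tested.

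**Figure D2:**
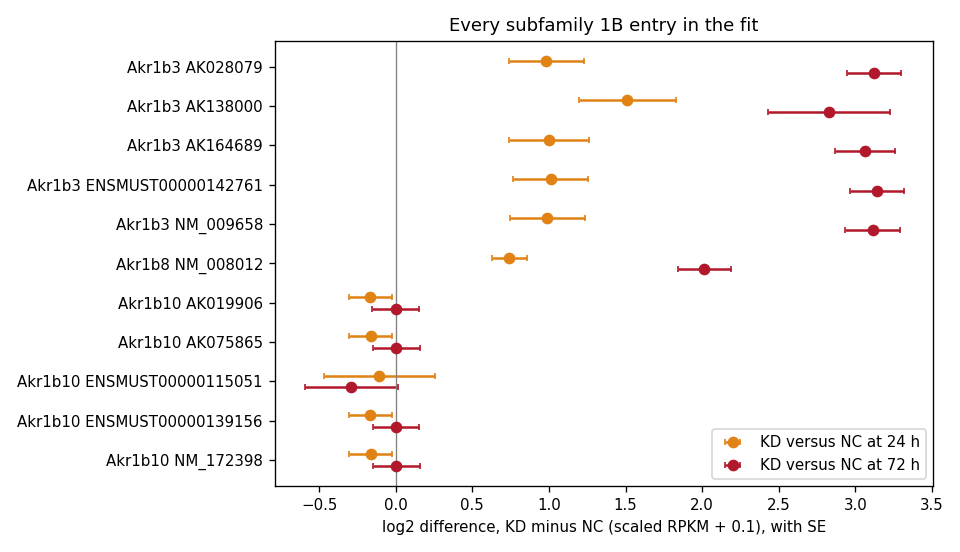
Fitted log2 difference between KD and NC (KD minus NC, scaled RPKM plus 0.1) with its SE for every entry of the subfamily that passed the filter on low values, at 24 h (orange) and 72 h (red). The Akr1b3 entries lie near 1 at 24 h, with AK138000 at 1.51, and near 3 at 72 h. Akr1b8 lies at 0.74 and 2.01, and the Akr1b10 entries lie between -0.29 and 0.0032.

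Akr1b8 was the most abundant member in every group. Its single entry, NM_008012, held 103, 120, 96.7, 93.3, 121 and 88.7 RPKM in KD 24 h, and from 52.3 to 69.3 RPKM (median 58.8) in NC 24 h. All KD samples were above all NC samples, as were those of 5.26% of the entries tested. The means were 104 ± 13.8 RPKM (SD, n = 6) and 59.5 ± 6.39 RPKM (SD, n = 6). Akr1b8 was 0.74 ± 0.12 higher in KD on the log2 scale, or 1.67-fold (limma, adjusted p = 0.000955).

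At 72 h Akr1b8 had a lowest KD value of 262 RPKM, a median of 401 and a highest of 413. The NC samples held 78.6, 89.9, 66.7, 61.8 and 73.5 RPKM. All KD samples were above all NC samples in deposited RPKM, as were those of 14.2% of the entries tested. Without scaling, the median difference of all entries at 72 h was 0.25 on the log2 scale, toward KD. The 2 lowest KD samples of Akr1b8 were those of the smaller cluster. The means were 360 ± 72.3 RPKM (SD, n = 6) and 74.1 ± 10.9 RPKM (SD, n = 5). The difference was 2.01 ± 0.18 on the log2 scale, or 4.04-fold (limma, adjusted p = 7.6e-06).

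Over time Akr1b8 rose in KD cells by 1.61 ± 0.17 on the log2 scale, or 3.05-fold (limma, adjusted p = 3.44e-05), where 9.86% of all entries were called in either direction. In NC cells, where 9.15% were called, its difference between the times was 0.34 ± 0.11 (adjusted p = 0.0681), a value that was called when the averaged replicates were kept apart (0.39, adjusted p = 0.0262), in the larger cluster (0.44, adjusted p = 0.0325) and without NC 72 h replicate 5 (0.39, adjusted p = 0.0403). The knockdown difference was larger at 72 h than at 24 h by 1.29 ± 0.22 (limma, adjusted p = 0.0112). Only 0.202% of all entries were called in this test of the knockdown difference between the times. The subfamily was chosen with results of these libraries known, and Akr1b8 followed Akr1b3 over the samples (r = 0.902). The p-values of Akr1b8 here and above are therefore not those of an independently chosen gene, and nothing is read from this share.

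Akr1b10, the neighbour of Akr1b8, showed no called difference between KD and NC in any entry of the fit. Its leading entry AK019906 ran from 23.4 to 32.4 RPKM (median 30.01) in KD 24 h and from 26.2 to 35.6 RPKM (median 33.3) in NC 24 h. At 72 h the KD samples held 45.3, 32.2, 42.8, 37.1, 62.9 and 62.2 RPKM and the NC samples 41.5, 35.7, 37.6, 31.95 and 46.5 RPKM. The groups overlapped at both times, and only KD 72 h replicates 5 and 6 stood above every NC sample. The means were 29.3 ± 3.20 and 31.7 ± 4.31 RPKM (SD, n = 6 each) at 24 h, and 47.1 ± 12.8 (SD, n = 6) and 38.7 ± 5.57 RPKM (SD, n = 5) at 72 h. The fitted differences were -0.17 ± 0.14 on the log2 scale at 24 h (limma, adjusted p = 0.4) and 0.00056 ± 0.15 at 72 h (adjusted p = 0.998). Changes larger than these errors could also go uncalled. In the smaller cluster, with its fewer samples, 0.52 ± 0.15 at 72 h was not called (limma, adjusted p = 0.0627).

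KD 72 h replicates 5 and 6 are the 2 KD 72 h samples of the smaller cluster. The Akr1b10 difference had opposite signs in the clusters, none of these values was called, and the difference between the clusters was not tested. At 72 h its difference was -0.28 in the larger cluster (adjusted p = 0.168) and 0.52 in the smaller (adjusted p = 0.0627). At 24 h it was -0.30 in the larger cluster (adjusted p = 0.18) and 0.07 in the smaller (adjusted p = 0.847). Akr1b8 was called in both clusters at both times, with 2.13 in the larger and 1.73 in the smaller at 72 h. The Akr1b3 differences at 72 h were 3.33 and 2.75. Over time Akr1b10 differed by 0.31 ± 0.12 in NC cells (adjusted p = 0.136) and by 0.48 ± 0.16 in KD cells (adjusted p = 0.0807). The latter was called without scaling (0.65, adjusted p = 0.0211), in the smaller cluster (0.60, adjusted p = 0.0162), with all groups in 1 fit (0.48, adjusted p = 0.0274) and without KD 72 h replicate 2 (0.58, adjusted p = 0.0401).

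3 other long entries of Akr1b10, ENSMUST00000139156, AK075865 and NM_172398, had nearly equal read totals and gave differences from -0.17 to -0.16 at 24 h and at most 0.0032 at 72 h. ENSMUST00000115051, at 1.26 to 9.58 RPKM, differed by -0.11 ± 0.36 at 24 h and -0.29 ± 0.30 at 72 h, neither of them called. AK169490 and ENSMUST00000144384 were lower in KD 24 h, with means of 0.52 and 1.37 RPKM for the former and 0.50 and 1.24 RPKM for the latter (exact permutation test, two-sided, p = 0.00433, adjusted p = 0.0245 over 17 member tests each). Both rest on 37 reads or fewer in a group and had overlapping groups at 72 h with higher KD means. Their read totals were nearly equal, with 14 and 15 in KD 24 h and 37 each in NC 24 h. These tests should therefore not be taken as separate. AK052576 and ENSMUST00000144072 had at most 14 reads in a group.

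Akr1b7 was barely detected. Its entry AK002705, whose values equal those of NM_009731, was above 0 in 1 KD 24 h sample at 0.15 RPKM, in 2 NC 24 h samples at 0.52 and 0.38 RPKM, in 2 KD 72 h samples at 0.49 and 0.79 RPKM and in no NC 72 h sample. These are 1, 4, 6 and 0 reads in the groups. A count of 0 in a library allows up to 3 reads, which corresponds to 0.443 to 1.73 RPKM, so the values lie at or near this limit. KD and NC could not be told apart at either time (exact permutation test, two-sided, p = 0.455 and adjusted p = 0.637 at each).

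In the order of levels per transcript length, taken from the RefSeq entries, the members ran Akr1b8, Akr1b10, Akr1b3 and Akr1b7 in both NC groups, each above the next in every sample. Mean levels in NC 72 h were 74.1, 35.6, 6.66 and 0 RPKM. In KD 72 h Akr1b3 was at 69.1 ± 11.9 RPKM (SD, n = 6) and came before Akr1b10 at 43.4 ± 11.7, although these 2 overlapped. In KD 24 h Akr1b10 at 27.0 and Akr1b3 at 24.1 RPKM did not differ beyond their spread. The library captures transcript ends, so RPKM orders genes by reads per annotated length only.

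The level of Akr1b3 (NM_009658) relative to Akr1b8 had a median of 0.23 in KD 24 h, 0.185 in NC 24 h, 0.193 in KD 72 h and 0.0905 in NC 72 h, where the ratios of 0.0655 to 0.116 lay below those of all other groups. Across the 23 samples, which share the group differences, Pearson's r on the log2 scale was 0.902 between Akr1b3 and Akr1b8, 0.241 between Akr1b8 and Akr1b10 and 0.0232 between Akr1b3 and Akr1b10.

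**Figure D3:**
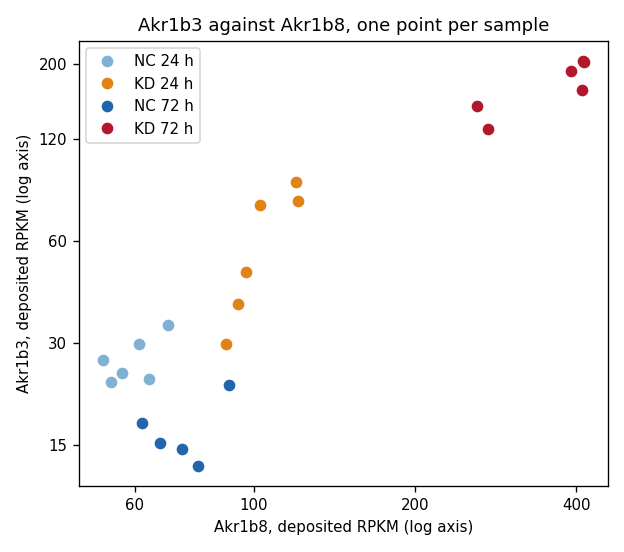
Akr1b3 (vertical) against Akr1b8 (horizontal), deposited RPKM on log axes, one point per sample and one colour per group. KD 72 h samples stand apart at the upper right, KD 24 h samples lie between, and NC 72 h samples lie below the NC 24 h samples in Akr1b3 while reaching higher in Akr1b8.

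The entries of other genes whose pattern was most like Akr1b3 over the 23 samples were AK054167 (r = 0.961), Uvrag (0.941) and Prkar1a (0.936). For Akr1b8 they were Ddx4 (0.948), Tfpi2 (0.945) and Cldn15 (0.941). Akr1b10 had less close company, with Decr1, an enzyme of unsaturated fatty acid oxidation, at 0.839, the matrix protein gene Sparc at 0.768 and Tmem19 at 0.764.

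Other genes that act beside the subfamily were examined in 7 lists, with 1 entry per symbol, and the median difference over all such entries was -0.0064 on the log2 scale at 24 h and -0.0097 at 72 h. The list counts below stand beside the 22.7% and 22.5% of all entries called at these times. Of 13 other aldo-keto reductases, 3 could be tested at 24 h and none was called (median 0.04). At 72 h 5 were tested, with 2 higher and none lower (median 0.38). Akr1c18 and Akr1c13 were too low for the fit at 24 h. None of 5 was called in the test of the knockdown difference between the times, which gave 0.47 ± 0.68 for Akr1c18 (limma, adjusted p = 0.83). Akr1c18, which breaks down progesterone, was 3.13 ± 0.39 higher in KD at 72 h (limma, adjusted p = 0.000103), with scaled means of 11.4 ± 4.40 RPKM (SD, n = 6) against 1.20 ± 0.49 (SD, n = 5). Akr1a1, aldehyde reductase, was 0.38 ± 0.09 higher (adjusted p = 0.00745). That call was lost with a replicate block (0.35, adjusted p = 0.0581) and in the smaller cluster (0.35, adjusted p = 0.0937).

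**Figure D4:**
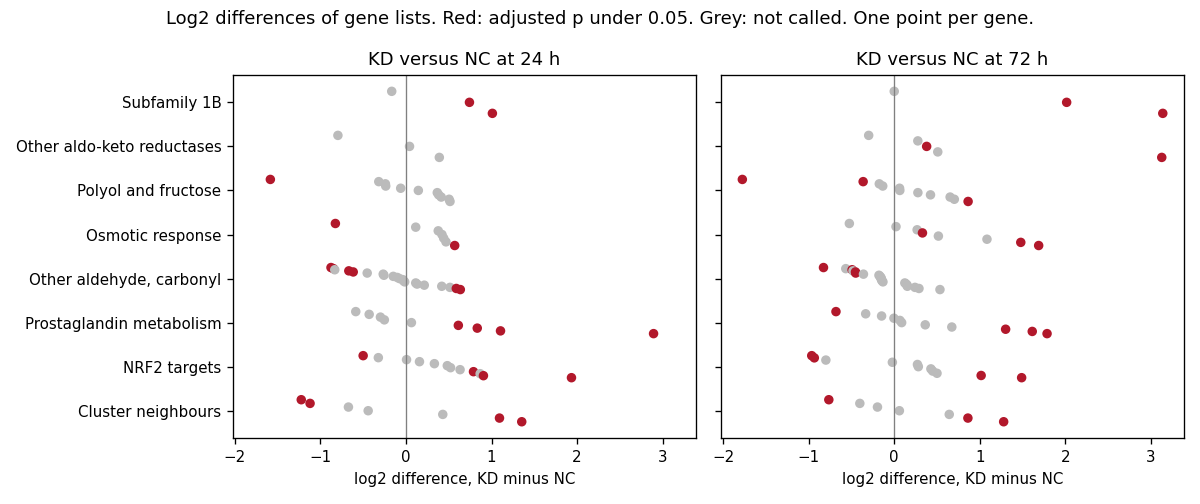
Log2 difference (KD minus NC) of 1 entry per gene for the subfamily and 7 gene lists at 24 h (left) and 72 h (right). Red points were called (adjusted p under 0.05) and grey points were not. At 72 h Akr1b3 at 3.14 and Akr1c18 at 3.13 lie farthest to the right, and Slc2a4 at -1.77 farthest to the left.

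Of 14 genes of the polyol pathway and fructose use, 11 were tested at each time, with none higher and 1 lower at 24 h (median 0.14) and 1 higher and 2 lower at 72 h (median 0.07). Sord, sorbitol dehydrogenase, which acts after aldose reductase, differed by -0.24 ± 0.18 at 24 h (limma, adjusted p = 0.336) and -0.13 ± 0.19 at 72 h (adjusted p = 0.653). Slc2a4, the insulin-responsive glucose transporter, fell by 1.58 ± 0.32 at 24 h (adjusted p = 0.00365) and 1.77 ± 0.18 at 72 h (adjusted p = 2.09e-05). Its 24 h call was lost in the smaller cluster (-0.61, adjusted p = 0.179). Aldoa, a glycolytic aldolase, fell by 0.36 at 72 h, and Hk1, a hexokinase, rose by 0.86, calls that 5 and 12 of the alternatives lost.

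Among 9 genes of the osmotic response, 1 of 7 tested was higher and 1 lower at 24 h (median 0.42), and 3 of 8 were higher and none lower at 72 h (median 0.42). Those higher at 72 h were the heat shock genes Hspa1b by 1.69 ± 0.19 (limma, adjusted p = 5.25e-05) and Hspa1a by 1.48 ± 0.50, and the amino acid transporter Slc38a2 by 0.33 ± 0.11. The last 2 were lost in 9 and 11 alternatives. Nfat5, the transcription factor of the tonicity response, differed by 0.42 ± 0.29 at 24 h and 0.02 ± 0.20 at 72 h and was not called.

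Of 24 other aldehyde and carbonyl enzymes, 21 were tested, with 2 higher and 4 lower at 24 h (median -0.08) and none higher and 4 lower at 72 h (median -0.15). The folate enzyme Aldh1l1 fell by 0.85 ± 0.21 at 24 h and 0.83 ± 0.20 at 72 h (adjusted p = 0.0112 and 0.0101, limma). Aldh6a1, which acts in valine breakdown, fell by 0.49 ± 0.15 and the carbonyl reductase Cbr4 by 0.45 ± 0.12 at 72 h. Each of these 3 calls at 72 h was lost in the smaller cluster and without scaling, and the 24 h call of Aldh1l1 in the smaller cluster (-0.60, adjusted p = 0.0673).

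Of 13 genes of prostaglandin synthesis and breakdown, 4 of 9 tested were higher and none lower at 24 h (median 0.06), and 3 of 11 were higher and 1 lower at 72 h (median 0.09). The cyclooxygenase Ptgs2 rose by 2.89 ± 0.37 at 24 h (limma, adjusted p = 0.000225) and by 1.79 ± 0.50 at 72 h (adjusted p = 0.0191). Its 72 h call was lost in the smaller cluster (1.06, adjusted p = 0.278) and with voom on recovered reads (1.715, adjusted p = 0.0915). Ptgs1, the other cyclooxygenase, rose by 0.83 ± 0.16 and 1.30 ± 0.15, and Hpgd, which inactivates prostaglandins, by 1.11 ± 0.26 and 1.61 ± 0.17. The 24 h calls of Ptgs1 and Hpgd were lost in the smaller cluster. Hpgds, a prostaglandin D synthase, fell by 0.68 ± 0.21 at 72 h, a call that 14 alternatives lost.

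Of 13 targets of the oxidative stress factor NRF2, 3 of 12 tested were higher and 1 lower at 24 h (median 0.50), and 2 of 11 were higher and 2 lower at 72 h (median 0.28). The quinone reductase Nqo1 rose by 0.91 ± 0.21 at 24 h and 1.49 ± 0.26 at 72 h (limma, adjusted p = 0.00714 and 0.00103), and thioredoxin reductase Txnrd1 by 1.93 ± 0.29 and 1.02 ± 0.15 (adjusted p = 0.000615 and 0.000424). The NADPH-forming enzymes Me1 and G6pdx fell by 0.96 ± 0.14 and 0.93 ± 0.11 at 72 h (adjusted p = 0.000357 and 5.44e-05), and G6pdx also by 0.50 ± 0.14 at 24 h (adjusted p = 0.0208). The 24 h call of G6pdx was lost in the smaller cluster (-0.13, adjusted p = 0.445). In the smaller cluster Nqo1 and Me1 were not called at 72 h.

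Of 9 genes on either side of the cluster on chromosome 6, 7 were tested, with 2 higher and 2 lower at 24 h (median -0.44) and 2 higher and 1 lower at 72 h (median 0.06). Tmem140 rose by 1.35 ± 0.24 and 1.28 ± 0.17 (limma, adjusted p = 0.00193 and 0.000214). Bpgm, the nearest gene beyond Akr1b7 among those listed and the source of bisphosphoglycerate in red cells, rose by 0.86 ± 0.21 at 72 h (adjusted p = 0.00987), a call lost with a replicate block and in the smaller cluster. Exoc4, an exocyst subunit, fell by 1.22 ± 0.27 and 0.76 ± 0.22 (adjusted p = 0.00607 and 0.021), and its 24 h call was lost in the smaller cluster (-0.75, adjusted p = 0.183) and its 72 h call in 6 alternatives.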

How the data were processed

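RNA of 24 libraries was sequenced by BRB-seq, a bulk method that barcodes samples with oligo-dT primers and reads the 3′ ends of transcripts. The authors deposited RPKM, reads scaled to transcript length and library depth, for 168326 transcript entries from RefSeq, Ensembl and GenBank, of which 128222 were above 0, and no column was left unused. Per the study's methods, tags were aligned to RefSeq within a commercial suite, and neither its version, the build nor the handling of strand and of multiple matches is given in the sources used here. Antisense and overlapping genes can therefore not be told apart.

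RPKM were read as whole reads from their smallest steps (tolerance 0.05): 94.2% to 94.8% of low values came out whole in 23 libraries and 75.0% in NC 72 h replicate 6. For the tests RPKM were scaled by a trimmed mean of log ratios (trim 30% and 5%), and log2(scaled RPKM + 0.1) was fitted with limma 3.58.1 in R 4.3.3 (trend, two-sided, Benjamini-Hochberg over all entries, adjusted p under 0.05). Fold changes are on that scale and understate those of low genes. An entry needed 10 reads' worth in the median library in as many samples as the smaller group, and 15 reads in all. Entries below the filter had exact permutation tests of mean RPKM. The unit was known as RPKM, so no count model was the main test, and voom on the recovered reads was an alternative. The fit was tested on simulated data. NC 72 h replicates 2 and 3 had a noise ratio of 0.275, against 1.44 for the next of 276 pairs. Floors of 3 reads cover counting error only.

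The members, the 7 lists, the 6 marker lists and the alternatives were chosen with earlier results of these data known. Named are all members, in each list the called genes of largest difference at 72 h (up to 3 in each direction, with their called 24 h values) and the 3 entries most like each member. Sord and Nfat5 were named after their values were seen. Endothelial markers summed to at most 2.64 RPKM in every sample.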

Additional observations from a re-analysis of the deposited data

Results flagged for a closer look

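The difference in the knockdown effect between 72 h and 24 h was 2.14 on the log2 scale for Akr1b3, given as a description because it was known when the genes were chosen, and 1.29 for Akr1b8 (1.286, limma test of the difference, adjusted p = 0.0112). Akr1b8 was not chosen independently of that Akr1b3 value. In 1 of 15 sets of sample values of the members examined, a single sample lay apart from the rest of its group: KD 24 h replicate 4 held 0.15 RPKM (0.1527) of Akr1b7, which is 1 read, and the other 5 samples of that group were at 0. For continuous values chance gives about 1 such sample in 20 groups, a rate that need not hold for 1 read against 0.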

How the results depend on the processing

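Akr1b8 kept its direction and its call in KD against NC at both times, and in the test of the difference between the times, under every alternative run. For Akr1b3, which helped to choose the genes, the values are a description. These were pseudocounts of 1 and 0.01 RPKM, no filter, no scaling, median-of-ratios scaling, a replicate block, the averaged replicates apart, 1 entry per symbol, RefSeq entries only, voom, all groups in 1 fit, either cluster and each library left out. Over the former, Akr1b3 ranged from 0.88 to 1.08 at 24 h and from 2.75 to 3.39 at 72 h, and Akr1b8 from 0.70 to 0.80 and from 1.73 to 2.27. With each library left out, Akr1b3 ranged from 0.88 to 1.21 and from 3.06 to 3.24, and Akr1b8 from 0.69 to 0.81 and from 1.95 to 2.13. In KD against NC the fitted Akr1b10 entry was never called. Its sign turned at 24 h in the smaller cluster (0.072). At 72 h it turned in the larger cluster (-0.28), with all groups in 1 fit (-0.0012) and over the left-out libraries (-0.075 to 0.097). The cause was not tested. For Akr1b7, which did not pass the filter for the fit, scaled RPKM, the averaged replicates apart and left-out libraries were run. Fitted without the filter, it differed by -0.60 ± 0.52 at 24 h (limma, adjusted p = 0.582) and 0.94 ± 0.59 at 72 h (adjusted p = 0.42).

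Without scaling, the median of all entries at 72 h moved to 0.25 and 80.9% of calls were higher in KD, against 46.2% as reported. For the time comparison in KD cells these were 0.16, 80.8% and 51.0%, and for the difference between the times 0.20, 96.1% and 63.3%. Akr1b3 at 3.39 and Akr1b8 at 2.27 stayed above that shift.

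Calls over all entries, reported as 11821 at 24 h, became 3662 with RefSeq entries, 1562 in the smaller cluster and 2433 with 1 entry per symbol, where fewer entries or samples entered. At 72 h, 12168 became 3563, 5841 and 2719 in the same order. For NC over time, 4822 became 1418, 1799 and 1071, and 2920 with a replicate block. For KD over time, 5236 became 1629 with RefSeq entries, 1215 with 1 entry per symbol and 8193 with all groups in 1 fit. For the difference between the times, 120 became 243 with a pseudocount of 1 RPKM, 773 without scaling, 30 with a replicate block, 182 with the averaged replicates apart, 49 with RefSeq entries, 50 with 1 entry per symbol, 869 in the larger and 1849 in the smaller cluster. With each library left out it ranged from 53 to 176, lowest without NC 24 h replicates 2, 4 or 5 or KD 72 h replicates 1 to 4.

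Replicate numbers did not pair the samples (mean correlation of deviations -0.084 at 24 h and 0.011 at 72 h). With the replicate block Akr1b3 differed by 1.01 and 3.09 and Akr1b8 by 0.74 and 1.97, the latter 2 called, and the calls at 24 h and 72 h numbered 8745 and 8245. Depth limits Akr1b7 and the lowest entries of Akr1b3 and Akr1b10.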
